A study of Mus musculus with 15 samples.

Results

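Trbv19 is the mouse T cell receptor (TCR) β variable gene whose protein is known to antibodies as Vβ6. Its use was followed in activated CD8+ T cells, sorted as PD-1+ and CD44+, from 5 untreated (control) mice. Every rearrangement that the assay assigned to this V gene (TCRBV19-01 in the assay's naming) was taken, which gave 2497 of the 29992 rearrangements listed over 15 samples. Of these, 1474 were productive (in frame and without a stop codon) and 1023 were non-productive, and they were kept apart throughout. The productive ones came from 1336 distinct nucleotide sequences, each of which is called a TCR below. Trbv19 was chosen by its share of unique productive TCRs, compared between tumor 1 and the TdLN of these same samples, so its shares are given as a description without a test.

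The mice were young female C57BL/6 animals carrying B16F10GP tumors in both flanks, a melanoma line that makes the glycoprotein of lymphocytic choriomeningitis virus. The right tumor (tumor 1) was implanted first and the left tumor (tumor 2) a few days later, and the tumor draining lymph node (TdLN) is that of the tumor 1 side. Each tissue gave 5 samples, numbered by mouse, and no sample came from a treated mouse or from a mouse without a tumor. Genomic DNA of the sorted cells was sequenced at the rearranged β locus, and the values are estimated numbers of genomes (templates) that carry each rearrangement. No transcripts were measured, so the identity of the sorted cells could not be checked against marker genes.

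A TCR β chain is assembled when a V gene is joined to a D and a J gene, with trimming of the gene ends and addition of untemplated N bases at the joints. The joint codes for the third complementarity determining region (CDR3), the loop that makes most of the contact with a presented peptide, while the V gene codes for the other loops. Vβ6 is among the Vβ elements that respond to the Mls-1a superantigen of an endogenous mammary tumor virus. A rearrangement that is out of frame makes no receptor and is carried along by a T cell whose other allele is productive.

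Trbv19 lies at chr6:41178375-41179048 on the plus strand of GRCm38, and its second exon, chr6:41178746-41179048, codes for the variable domain. The end of this exon, chr6:41178962-41179048, is shown as the germline form that the rearrangements below start from, with the part that belongs to the CDR3 in capitals.
Trbv19 exon 2 end: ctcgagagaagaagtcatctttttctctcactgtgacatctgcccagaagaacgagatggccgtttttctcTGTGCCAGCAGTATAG
The first bases of 1266 of the 1336 productive TCRs (94.8%) matched this exon exactly over 30 bases or more.

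The largest productive Trbv19 TCR of tumor 1 of each mouse is shown because these TCRs held more templates there than any other Trbv19 TCR. In this and the following sequences the capitals mark the bases between the V and the J segment, which are D and N bases and differ from cell to cell.
Tumor 1 of mouse 1, Trbj1-2: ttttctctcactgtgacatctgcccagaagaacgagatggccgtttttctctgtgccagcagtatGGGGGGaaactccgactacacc
Tumor 1 of mouse 2, Trbj2-7: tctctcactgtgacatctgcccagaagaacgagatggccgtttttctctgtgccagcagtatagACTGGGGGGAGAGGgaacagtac
Tumor 1 of mouse 3, Trbj2-4: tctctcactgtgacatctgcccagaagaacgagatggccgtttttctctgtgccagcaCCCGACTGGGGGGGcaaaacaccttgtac
Tumor 1 of mouse 4, Trbj1-4: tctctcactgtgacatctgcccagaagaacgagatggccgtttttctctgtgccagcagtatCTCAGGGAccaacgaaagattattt
Tumor 1 of mouse 5, Trbj2-4: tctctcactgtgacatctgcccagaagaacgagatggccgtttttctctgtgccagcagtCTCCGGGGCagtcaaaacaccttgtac
All 5 have a CDR3 of 39 or 42 bases, and no junction occurs in more than a single one of them.

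The following 3 TCRs are shown because each was found in tumor 2 of mice 1, 2 and 3 and in no other sample, which is more mice than any other Trbv19 TCR except the 8 further ones of the same kind.
Common TCR 1, Trbj2-1: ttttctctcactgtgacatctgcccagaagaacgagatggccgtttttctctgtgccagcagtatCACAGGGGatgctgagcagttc
Common TCR 2, Trbj2-4: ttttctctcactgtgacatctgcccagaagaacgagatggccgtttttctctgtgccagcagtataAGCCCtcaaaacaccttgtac
Common TCR 3, Trbj1-2: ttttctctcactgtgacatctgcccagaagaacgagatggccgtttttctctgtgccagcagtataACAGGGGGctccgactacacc
These 3 TCRs have 8, 5 and 8 bases between V and J, and the tumor 1 TCRs shown above have 6, 14, 14, 8 and 9 in mice 1 to 5.

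Productive templates numbered 3253 to 9099 in the TdLN, 3600 to 6137 in tumor 1 and 238 to 3975 in tumor 2, the lowest being tumor 2 of mouse 4. Unique productive Trbv19 TCRs numbered 112 to 376 in the TdLN, 17 to 46 in tumor 1 and 10 to 51 in tumor 2. Where a TCR had 0 templates in a TdLN, its share there could still be up to 0.0330% (mouse 5) to 0.0922% (mouse 2), which is what 3 templates make up. Mice 1 to 3 carry names of another style than mice 4 and 5, and within-mouse differences are therefore also split by these sets. What this difference marks is not said in the labels.

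Some samples of different mice shared Trbv19 TCRs. Each tumor 1 shared 6 to 13 with the TdLN of its own number and 0 to 2 with any other TdLN. By share this was 13.04% to 52.9% and at most 5.71%, against 11.5% to 49.5% and at most 4.76% over all V genes. Tumor 2 of mouse 3 shared 0 of its 38 with the TdLN or tumor 1 of mouse 3, but 14 with tumor 2 of mouse 1 and 13 with tumor 2 of mouse 2. Tumor 2 of mouse 1 and tumor 2 of mouse 2 shared 20. All 10 TCRs of tumor 2 of mouse 4 were found in tumor 1 of mouse 4, and 5 of them also in tumor 1 of mouse 5. Tumor 2 of mouse 5 shared 1 with its own TdLN and 3 with the TdLN of mouse 4. Sharing among TCRs of all V genes together was largely alike. Of the 194 in tumor 2 of mouse 3, 3 were in its TdLN and 6 in its tumor 1. In tumor 2 of mice 1 and 2 were 65 and 51 of them. Tumor 2 of mouse 1 shared 143 of 331 with that of mouse 2. Tumor 2 of mouse 4 shared 35 of 50 with tumor 1 of mouse 4 and 18 with that of mouse 5. Tumor 2 of mouse 5 shared 30 of 553 with its own TdLN and 29 with that of mouse 4. Over all V genes, TCRs found in another mouse held 62.9% to 93.4% of the productive templates of both tumors in mice 1 to 4, 7.92% and 11.8% in mouse 5, and 1.80% to 37.2% in the TdLN. Among Trbv19 templates these shares were 8.33%, 49.2%, 0%, 88.1% and 31.7% in tumor 1 of mice 1 to 5 and 85.8%, 70.1%, 90.4%, 65% and 2.84% in tumor 2. The source of this sharing was not tested. Every within-mouse value of tumor 2 below takes the mouse numbers as labelled, although for mouse 3 no Trbv19 TCR ties tumor 2 to its other samples. The results that rest on the sharing are given with and without TCRs found in another mouse.

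**Figure D1:**
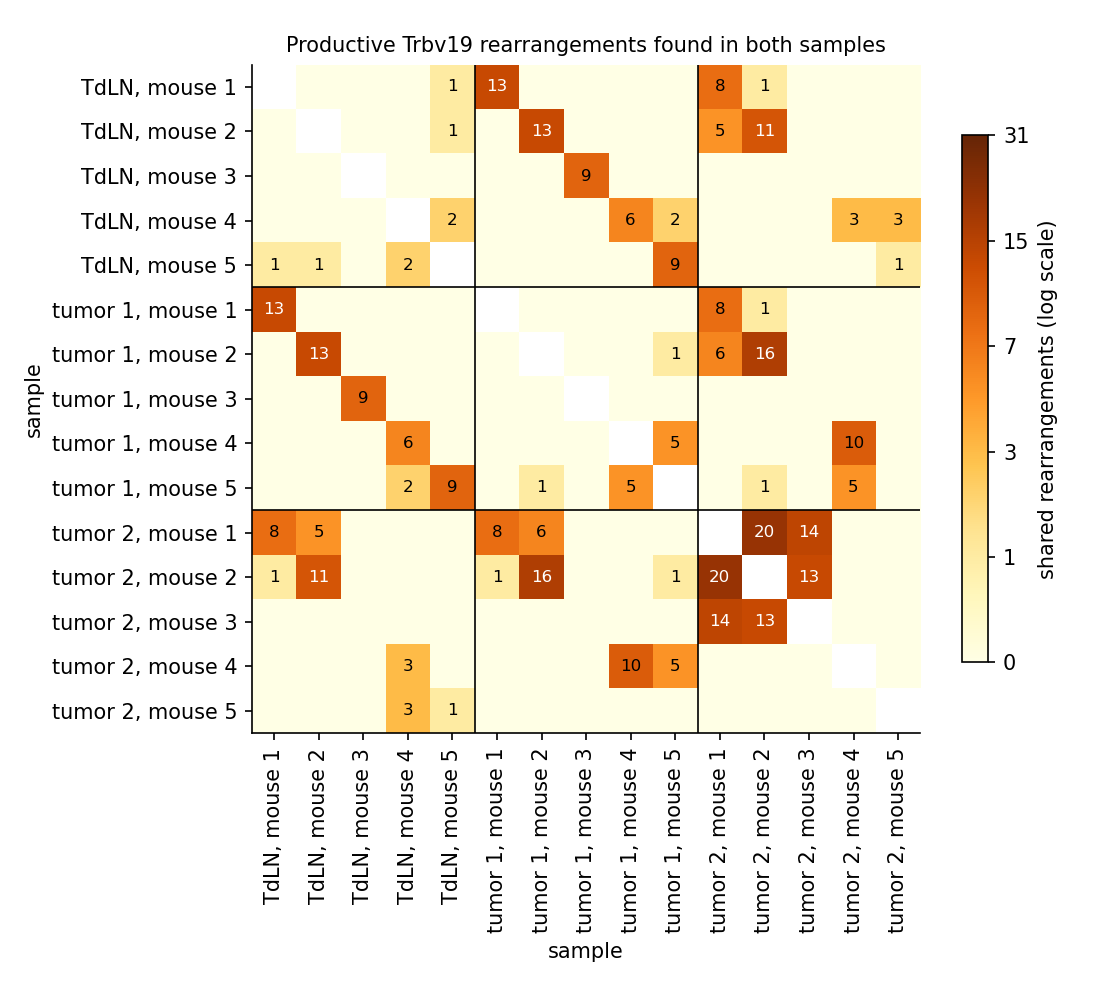
Number of productive Trbv19 TCRs found in both of 2 samples, for all pairs of the 15 samples, with the tissue and mouse on both axes and colour on a log scale; blank cells hold 0 and the diagonal is left out. The TdLN and tumor 1 pair by mouse (6 to 13 shared), while tumor 2 of mice 1, 2 and 3 share 13 to 20 with each other.

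Trbv19 made up more of the unique productive TCRs in both tumors than in the TdLN in all 5 mice. In the TdLN its share was 9.58%, 9.26%, 8.68%, 6.36% and 6.58% in mice 1 to 5. In tumor 1 it was 10.2%, 11.99%, 9.34%, 12.6% and 10.4%, and the groups overlapped through mouse 3 alone. In tumor 2 it was 12.4%, 12.2%, 19.6%, 20% and 9.22%. Tumor 2 of mice 3 and 4 stood above all other samples, and the value of mouse 4 rests on 10 of 50 TCRs, with a 95% Wilson interval of 11.2% to 33.0%, which covers counting error only.

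On average the share stood at 8.09% ± 1.52 for TdLN samples, at 10.9% ± 1.33 for tumor 1 and at 14.7% ± 4.84 for tumor 2 (SD, 5 mice each). Within mice, tumor 1 exceeded the TdLN by 2.81 ± 2.34 percentage points, 1.34 ± 1.20 in mice 1 to 3 and 5.02 ± 1.67 in mice 4 and 5. Tumor 2 exceeded the TdLN by 6.58 ± 5.29 points, 5.54 ± 4.65 in mice 1 to 3 and 8.14 ± 7.77 in mice 4 and 5. For tumor 1 the 2 largest differences were thus those of mice 4 and 5, whose TdLN had the lowest Trbv19 shares and the most templates, 8726 and 9099. For tumor 2 mouse 5 had the smallest difference of all, 2.64 points, and mouse 4, with its 10 TCRs, the largest, 13.6 points. With every TdLN downsampled to 3253 templates, the differences averaged 2.85 points for tumor 1 and 6.62 for tumor 2. Among all V genes Trbv19 ranked first in tumor 1 of mice 2, 4 and 5 and in tumor 2 of every mouse but mouse 5, where it was second. In the TdLN it ranked between 1 and 6. Without TCRs found in another mouse, the averages were 8.19% (TdLN), 11.6% (tumor 1) and 13.3% (tumor 2).

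Counted by templates, the pattern was another one. Trbv19 held 6.25%, 7.93%, 7.13%, 6.08% and 6.29% of the productive templates of the TdLN in mice 1 to 5. In tumor 1 it held 1.56%, 4.55%, 2.47%, 24.4% and 3.94%. Tumor 1 thus lay below its own TdLN in 4 of 5 mice and far above it in mouse 4, and the mean difference of 0.639 ± 9.90 points (SD, n = 5) is set by that mouse, as it was -3.77 without it, -4.24 ± 0.744 in mice 1 to 3 and 7.96 ± 14.6 in mice 4 and 5. In tumor 2 the shares were 6.39%, 7.25%, 15.4%, 16.8% and 6.82%, close to the TdLN in mice 1, 2 and 5 and higher in mice 3 and 4. This order turned when TCRs found in another mouse were left out. Trbv19 then held 18.4%, 15.6%, 6.65%, 15.8% and 2.93% of the templates of tumor 1, above the TdLN in mice 1, 2 and 4, and 17.3% ± 6.90 in tumor 2, above the TdLN in 5 of 5 mice.

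**Figure D2:**
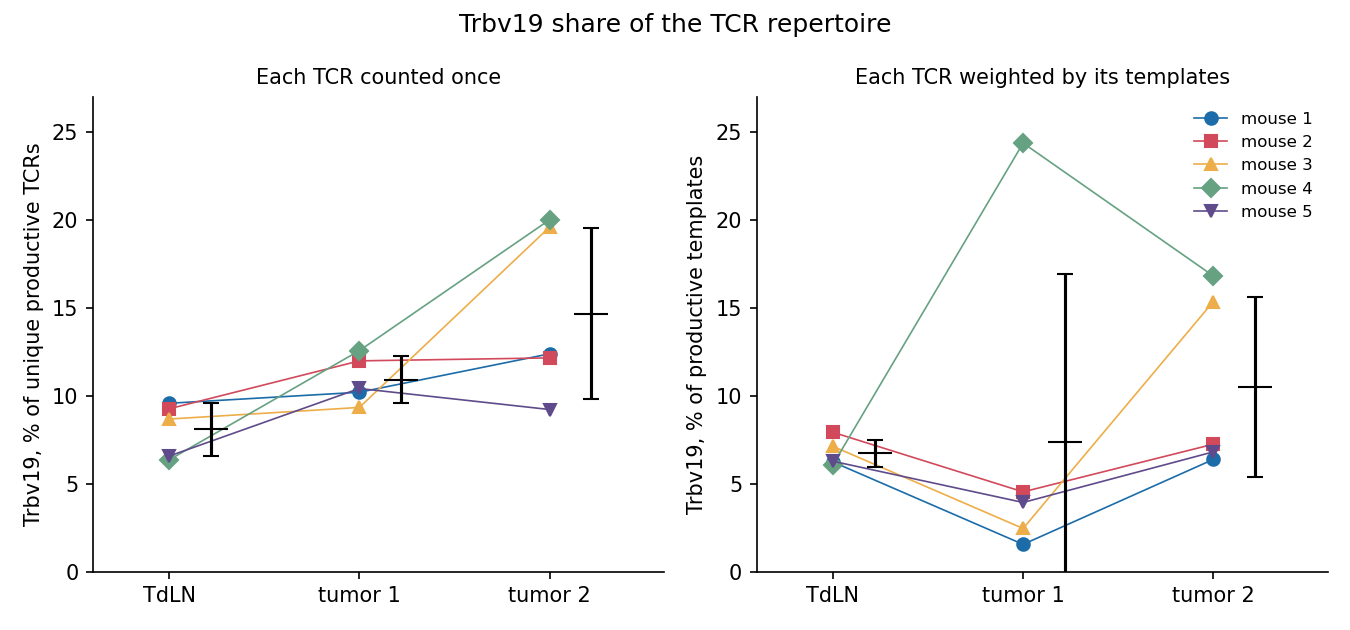
Share of Trbv19 among unique productive TCRs (left) and among productive templates (right) in percent, by tissue; each line joins the samples of a mouse, and the bars beside the points give the mean and 1 SD over 5 mice, drawn down to 0 where the SD exceeds the mean. By unique TCRs both tumors lie above the TdLN in all mice, while by templates tumor 1 lies below the TdLN except in mouse 4 at 24.4%.

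Trbv19 TCRs of tumor 1 were smaller than those of other V genes in 4 of 5 mice. A Trbv19 TCR held on average 3.84, 5.46, 5.76, 28.1 and 4.06 templates in tumor 1 of mice 1 to 5. A TCR of another V gene held 27.5, 15.6, 23.5, 12.5 and 11.5 templates in the same samples. The log2 ratio of the first to the second was -1.34 ± 1.503 in tumor 1, -0.62 ± 0.31 in tumor 2 and -0.27 ± 0.25 in the TdLN (SD, n = 5 each), and it was above 0 in tumor 1 of mouse 4 alone. Without TCRs found in another mouse it was -0.23 ± 1.05 in tumor 1, above 0 in 3 of 5 mice, and 0.39 ± 0.51 in tumor 2, above 0 in 4 of 5. The share of Trbv19 TCRs seen as a single template was near that of other V genes, at 45.3% ± 9.28 against 48.6% ± 5.05 in tumor 1 and 63.4% ± 9.21 against 61.5% ± 6.27 in the TdLN.

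The largest Trbv19 TCR had 27, 67, 27, 352 and 17 templates in tumor 1 of mice 1 to 5, which is 0.440%, 1.59%, 0.680%, 6.64% and 0.472% of the productive templates. In the order of all TCRs of these samples it ranked 17, 5, 12, 6 and 32. The 352 templates of mouse 4 were 27.2% of all Trbv19 templates of that tumor, and 3 Trbv19 TCRs were among its 10 largest TCRs. In the TdLN the largest Trbv19 TCR had 24, 29, 31, 5 and 20 templates. In tumor 2 it had 76, 37, 134, 14 and 62 templates. The largest of tumor 2 of mice 1 and 3 was common TCR 1, and that of mouse 2 was common TCR 2, tied with common TCR 1.

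These large TCRs differed in where else they were found. The largest of tumor 1 of mouse 1 was absent from the TdLN, where 0 of 3779 templates allow a share of up to 0.0794%, and had 7 templates in tumor 2. The largest of mouse 2 had 3 templates in its TdLN and 17 in its tumor 2, and 14 more were found in tumor 2 of mouse 1. The largest of mouse 3 had 7 templates in its TdLN and none in tumor 2. The TCR of 352 templates in mouse 4 was absent from its TdLN (0 of 8726 templates, up to 0.0344%), with 2 templates in tumor 2 of mouse 4 and 12 in tumor 1 of mouse 5. The largest of mouse 5 was found in tumor 1 of mouse 5 alone. The largest TCR of each TdLN, in turn, was found in tumor 1 of the same mouse for mouse 2 (1 template) and mouse 3 (9 templates) but not for mice 1 and 5. In the TdLN of mouse 4, 3 Trbv19 TCRs tied at 5 templates, so no single largest one was followed.

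The J genes that Trbv19 was joined to differed between tissues in a few members. Trbj2-7, Trbj2-1 and Trbj1-1 were the most frequent partners in the TdLN, with 18.7% ± 4.84, 13.04% ± 4.08 and 12.9% ± 4.21 of unique productive Trbv19 TCRs with an assigned J gene (SD, n = 5). Trbj2-7 was at 20.5% ± 9.45 in tumor 1 and Trbj1-1 at 12.8% ± 3.36, both within the spread of the TdLN. The 2 J genes with the largest difference between tumor 1 and TdLN were Trbj2-4 and Trbj2-1, and as they were picked for that difference they were not tested.

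Trbj2-4 was higher in both tumors. It made up 14.7%, 7.28%, 8.93%, 4.67% and 6.4% of Trbv19 TCRs in the TdLN of mice 1 to 5. In tumor 1 it made up 16%, 14.3%, 41.2%, 15.2% and 14.3%, higher than the TdLN of the same mouse in 5 of 5 mice, with an overlap of the groups through the TdLN of mouse 1. In tumor 2 it made up 17.1%, 20.5%, 15.8%, 20% and 11.8%, again higher in 5 of 5 mice. The counts behind these shares are small, 4 to 7 TCRs in a tumor 1 and 2 to 9 in a tumor 2. Among TCRs of other V genes Trbj2-4 was at 8.01% ± 0.600 in the TdLN, 8.13% ± 2.58 in tumor 1 and 8.38% ± 1.13 in the later tumor 2. Without TCRs found in another mouse, Trbv19 used it at 8.37% ± 4.08 in the TdLN and 18.7% ± 12.8 in tumor 1, still higher in 5 of 5 mice, but at 9.31% ± 7.65 in tumor 2, higher in 3 of 5. Mouse 3, with 7 of 17 TCRs, stood apart in tumor 1, and the next highest mouse was at 16%. The mean difference of tumor 1 from the TdLN was 11.8 ± 11.9 points with mouse 3 and 6.68 ± 3.91 without it. Non-productive Trbv19 rearrangements used Trbj2-4 at 7.55% ± 3.81 in the TdLN and 13.8% ± 9.52 in tumor 1, higher in 3 of 5 mice. In tumor 2 they used it at 10.4% ± 9.43, also higher in 3 of 5.

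Trbj2-1 went the other way in tumor 1. It made up 6.98%, 13.9%, 17.9%, 11.5% and 14.9% of Trbv19 TCRs in the TdLN and 4%, 5.71%, 5.88%, 8.70% and 2.86% in tumor 1, lower in 5 of 5 mice also when TCRs of another mouse were left out (5.36% ± 2.64). Tumor 2 did not share this, with 15.3% ± 10.6 (SD, n = 5) and a range of 0% to 26.3%. Other V genes used Trbj2-1 at 12.9% ± 0.688 in the TdLN and 11.8% ± 3.31 in tumor 1. Non-productive Trbv19 rearrangements used it at 13.4% ± 6.80 in the TdLN and 2.99% ± 2.82 in tumor 1, higher in 0 of 5 mice. Non-productive rearrangements of other V genes used it at 11.6% ± 1.71 in the TdLN and 9.21% ± 1.87 in tumor 1, also higher in 0 of 5 mice. The lower share in tumor 1 was thus not limited to productive TCRs, and among non-productive rearrangements it was not limited to Trbv19.

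**Figure D3:**
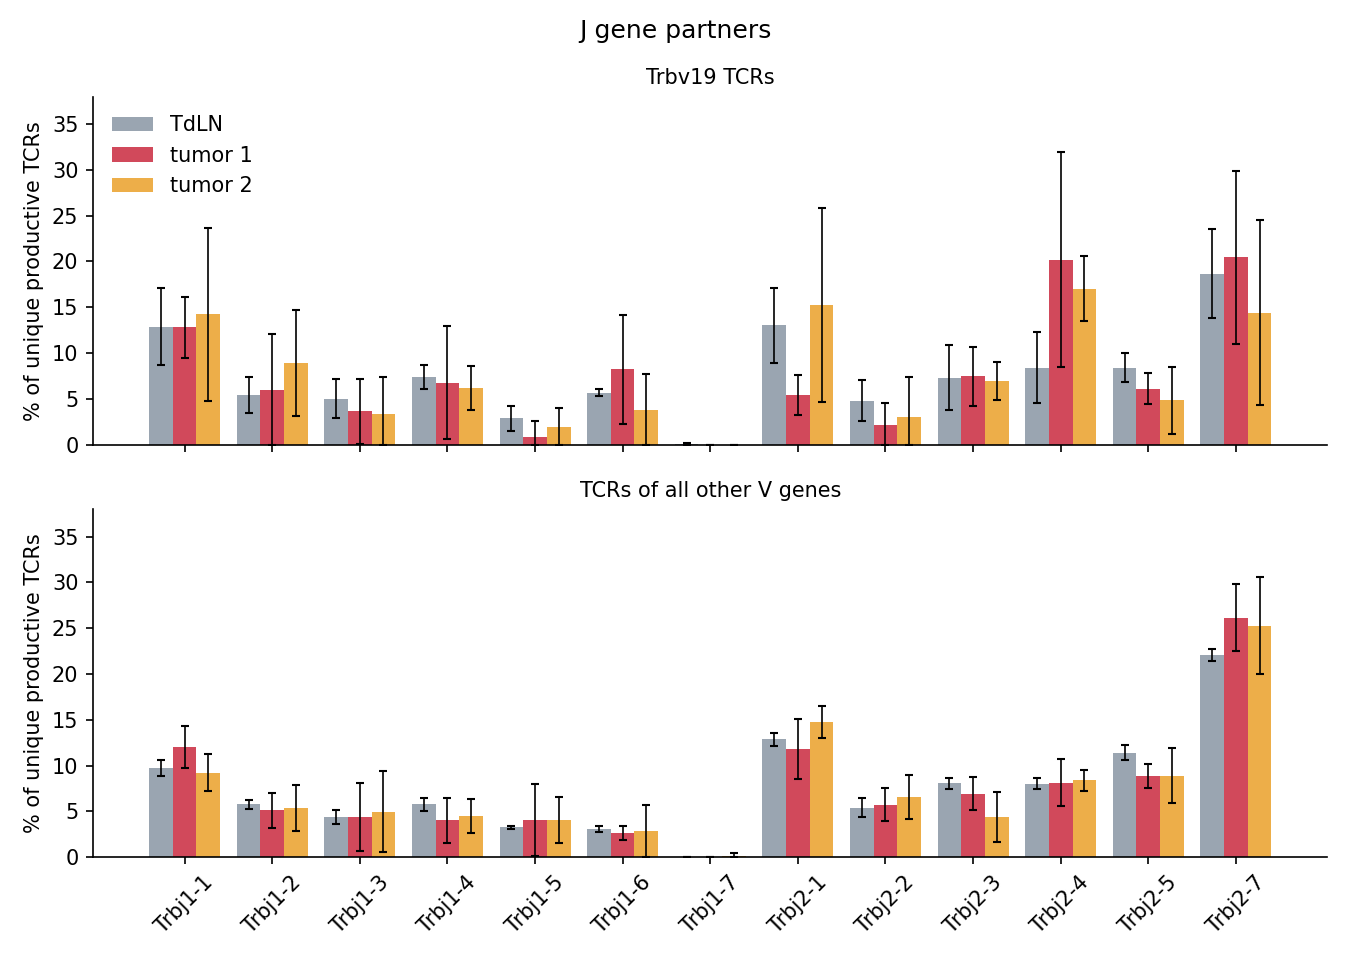
Share of each J gene among unique productive Trbv19 TCRs (top) and among those of all other V genes (bottom), in percent; bars give the mean over 5 mice of the TdLN, tumor 1 and tumor 2, and error bars 1 SD, drawn down to 0 at most. Trbj2-4 stands at 8.40% in the TdLN and at 20.2% and 17.0% in the tumors for Trbv19, and between 8.01% and 8.38% for other V genes.

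The J genes form the Trbj1 and Trbj2 clusters, and the share joined to Trbj2 did not differ between tissues beyond its spread. TdLN samples had 60.6% ± 6.67, tumor 1 samples 61.8% ± 10.3 and tumor 2 samples 61.5% ± 8.56 (SD, n = 5; exact permutation test, two-sided, p = 0.865 and 0.841, adjusted p = 1 for both). The numbers of N bases in a TCR were 3.95 ± 0.519, 4.21 ± 0.822 and 3.55 ± 0.217 in the same order (p = 0.603 and 0.135, adjusted p = 0.983 and 0.506, same exact test). Within single tissues, Trbv19 TCRs of the TdLN carried 0.394 ± 0.315 more N bases than TCRs of other V genes, in 5 of 5 mice, and their V end was trimmed by 3.32 ± 0.213 bases against 2.598 ± 0.135. The tumors did not show this, with N base differences of 0.155 ± 1.17 (higher in 2 of 5 mice) in tumor 1 and -0.344 ± 0.363 (1 of 5) in tumor 2, and V trimming differences of 0.114 and -0.467 bases (higher in 2 of 5 mice each).

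The mean CDR3 length of Trbv19 TCRs was lower in both tumors than in the TdLN of the same mouse for each of the 5 mice. This did not pass adjustment over all V genes tested. The mean length was 41.6, 41.6, 41.2, 41.7 and 41.7 bases in the TdLN of mice 1 to 5. In tumor 1 it was 41.2, 39.8, 41.1, 41.5 and 41.2 bases, and in tumor 2 it was 40.7, 40.2, 39.5, 41.1 and 41.5 bases. The groups overlapped through the TdLN of mouse 3, the lowest of its tissue. For non-productive Trbv19 rearrangements, the length in tumor 1 differed from the TdLN by -0.649 ± 0.477 bases, higher in 0 of 5 mice. For tumor 2 their difference was -1.14 ± 1.27 bases, higher in 1 of 5 mice (SD, n = 5 each). Non-productive rearrangements of other V genes had mean lengths of 42.8, 43.0, 42.5, 42.5 and 42.4 bases in the TdLN of mice 1 to 5. In tumor 1 these were 39.7, 42.3, 41.5, 41.8 and 41.4 bases, and in tumor 2 40.8, 42.3, 41.2, 40.6 and 42.1. Both tumors lay below the TdLN in every mouse. The lower length was thus not limited to productive TCRs, and among non-productive rearrangements it was not limited to Trbv19.

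The difference from the TdLN was -0.585 bases for tumor 1 (40.96 ± 0.687 against 41.55 ± 0.199) and -0.946 for tumor 2 (40.60 ± 0.795; SD, n = 5 each). Neither passed adjustment over all 75 tests of CDR3 length, N bases and Trbj2 share made for the V genes with enough TCRs (exact two-sided permutation, Benjamini-Hochberg over the 75, p = 0.0238 and 0.0159, adjusted p = 0.213 and 0.198). These tests are unpaired, although tumor and TdLN came from the same mice, and tumor 2 of mice 1 to 3 shared TCRs with each other. Within mice, the exact sign-flip p was 0.0625 for each tumor, the smallest that 5 mice allow. No V gene and measure reached an adjusted p under 0.05, with 0 of 51 tests over 17 V genes (0%) for tumor 1 and 0 of 24 tests over 8 V genes (0%) for tumor 2. An unadjusted p under 0.05 was reached by 9 of the 51 (17.6%) and by 6 of the 24 (25%). With 5 samples against 5 the smallest p is 0.00794, and 12 of the 75 tests would have had to reach it for any adjusted p under 0.05, against 3 that did.

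The mean CDR3 length was lower in tumor 1 than in the TdLN for 12 of 17 V genes, and in tumor 2 for 4 of 8. Within the sets of mice, the tumor 1 difference was -0.793 ± 0.920 in mice 1 to 3 and -0.273 ± 0.230 in mice 4 and 5. For tumor 2 it was -1.35 ± 0.390 and -0.345 ± 0.296. Without TCRs found in another mouse the tumor 2 difference fell to -0.453 bases (exact permutation p = 0.429), while that of tumor 1 was -0.649 (p = 0.0952). Leaving out mouse 2 reduced the tumor 1 difference to -0.273 bases.

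By length class, Trbv19 TCRs with a CDR3 of 39 bases made up 17.9% ± 1.80 of TdLN TCRs, but 28.1% ± 11.3 of those in tumor 1 and 29.2% ± 11.4 of those in tumor 2 (SD, n = 5). A CDR3 of 42 bases was the most frequent in each tissue, with 35.4% ± 2.16, 39.6% ± 17.4 and 37.9% ± 12.8. A CDR3 of 48 bases was at 7.81% ± 2.78 in the TdLN against 1.61% ± 2.57 in tumor 1 and 2.45% ± 4.25 in tumor 2. For other V genes, 39 bases was at 17.7%, 19.9% and 24.1%, and 48 bases at 10.8%, 9.25% and 8.97%. The excess of 39 bases in tumor 1 was 10.2 ± 12.7 points and 5.41 ± 7.94 without mouse 1.

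**Figure D4:**
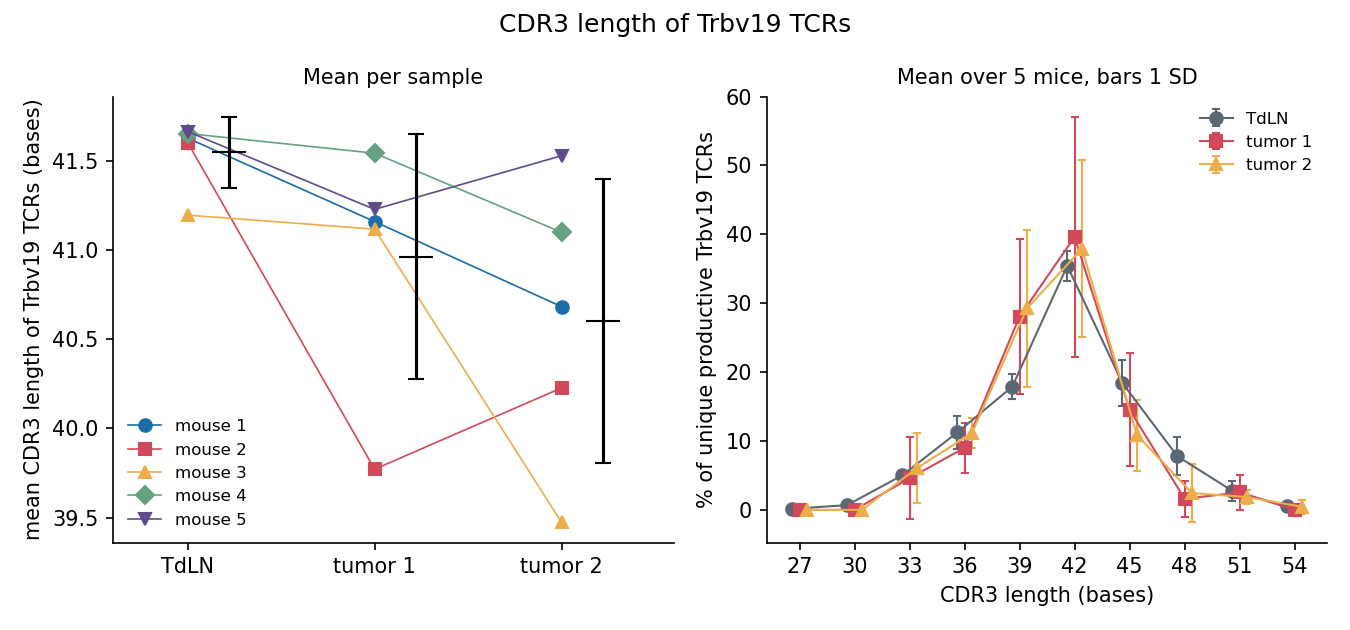
Left, mean CDR3 length in bases of unique productive Trbv19 TCRs in each sample by tissue, with lines joining the samples of a mouse and bars giving the mean and 1 SD over 5 mice; the axis does not start at 0. Right, share of each CDR3 length among these TCRs in percent, as means over 5 mice with 1 SD, with the tumors above the TdLN at 39 bases and below it at 48 bases.

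The study asked how much of the tumor repertoire is also found in the TdLN, and the same question was put to Trbv19. In tumor 1, 13 of 25, 13 of 35, 9 of 17, 6 of 46 and 9 of 35 Trbv19 TCRs of mice 1 to 5 were found in the TdLN, or 52%, 37.1%, 52.9%, 13.04% and 25.7%. TCRs of other V genes were found there at 45%, 35.4%, 49.1%, 11.2% and 23.3%. Trbv19 lay above them by 1.73 to 7 percentage points in 5 of 5 mice. The mean difference was 3.37 ± 2.20 points (SD, n = 5; exact sign-flip test, two-sided, p = 0.0625, adjusted p = 0.125 over both tumors and both weightings), and 0.0625 is the smallest p that 5 mice allow. It was 4.19 ± 2.65 in mice 1 to 3 and 2.13 ± 0.470 in mice 4 and 5. Without TCRs found in another mouse it was 7.41 ± 5.35 (5 of 5 mice, p = 0.0625 by the same exact test), and without the small TCRs described further on it was 1.87 ± 1.77 (4 of 5 mice, p = 0.125). With every TdLN downsampled to 3253 templates it was 1.77 ± 3.09 (exact sign-flip p = 0.375). Counting TCRs of at least 2 templates alone turned it to -6.32.

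Weighted by templates the order was reversed. Trbv19 TCRs found in the TdLN held 57.3%, 73.3%, 81.6%, 27.8% and 32.4% of the Trbv19 templates of tumor 1. For other V genes the figures were 95.4%, 90.1%, 89.99%, 34.6% and 56.5%. Trbv19 was lower in 5 of 5 mice, by 18.9 percentage points on average (54.5% ± 23.98 against 73.3% ± 26.6; exact sign-flip p = 0.0625, adjusted p = 0.125). With TCRs found in another mouse left out, the difference came to -1.03 ± 19.7 points (higher in 2 of 5 mice, exact sign-flip p = 0.875). Mice 4 and 5 stood below mice 1 to 3 for Trbv19 and for other V genes alike.

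In tumor 2, 8 of 41, 11 of 44, 0 of 38, 3 of 10 and 1 of 51 Trbv19 TCRs were found in the TdLN, which drains the other flank. Other V genes had 23.1%, 26.1%, 1.92%, 17.5% and 5.78%. Trbv19 was higher in mouse 4 alone, and the mean difference of 0.414 ± 6.85 points (exact sign-flip p = 1) was -2.61 without that mouse. With TCRs of another mouse left out it was 6.58 ± 8.07 points (higher in 3 of 5 mice, exact sign-flip p = 0.25). For the 0 of 38 in mouse 3 the 95% Wilson interval reaches 9.18%. By templates, Trbv19 stood at 12.1% ± 13.1 against 32.6% ± 31.4 (exact sign-flip p = 0.188), and without TCRs found in another mouse the difference was 3.16 ± 19.5 points.

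Within tumor 1, Trbv19 TCRs that were also in the TdLN were larger than those that were not. They held on average 4.23, 10.8, 8.89, 59.8 and 5.11 templates in mice 1 to 5, against 3.42, 2.32, 2.25, 23.3 and 3.69. The log2 ratio was 1.27 ± 0.86, above 0 in 5 of 5 mice (exact sign-flip p = 0.0625, adjusted p = 0.25 over 8 tests). With TCRs of another mouse left out it was 0.71 ± 1.38, above 0 in 4 of 5 mice. This was not particular to Trbv19. Shared TCRs of other V genes were on average 32.8% of TCRs but 73.3% of templates, against 36.2% and 54.5% for Trbv19. With TCRs of another mouse left out, these shares were 27.8% and 50.7% for other V genes and 35.2% and 49.6% for Trbv19. Trbj2 was used by 72.0% of the shared and 58.1% of the unshared Trbv19 TCRs of tumor 1, again higher in 5 of 5 mice (difference 13.8 ± 16.9 points, same p values). By mouse the shared TCRs were at 46.2%, 69.2%, 77.8%, 100% and 66.7%. The unshared ones were at 41.7%, 63.6%, 62.5%, 57.5% and 65.4%. The largest difference was that of mouse 4, which had 6 shared TCRs, and the other mice had 9 to 13. CDR3 length was 41.3 against 41.0 bases, higher in 3 of 5 mice (exact sign-flip p = 0.75). In tumor 2 the 4 mice with shared TCRs showed the opposite order of size in 3 cases, with a log2 ratio of -0.80 ± 0.83. With TCRs of another mouse left out this was -0.38 ± 1.53, above 0 in 2 of 4 mice.

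Across all samples, 39 of the 1336 distinct productive Trbv19 TCRs (2.92%) were found in 2 or more mice, 28 of them in 2 and 11 in 3. For other V genes 322 of 16119 (1.998%) were found in 2 or more mice. The 11 Trbv19 TCRs of 3 mice were all found in tumor 2 of mice 1, 2 and 3 and nowhere else, the TdLN and tumor 1 of these mice included.

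These 11 TCRs made up much of the Trbv19 templates of their samples. They held 174 of 254 in tumor 2 of mouse 1 (68.5%), 122 of 244 in mouse 2 (50%) and 520 of 592 in mouse 3 (87.8%). Common TCR 1 had 76, 37 and 134 templates in tumor 2 of mice 1, 2 and 3, common TCR 2 had 37, 37 and 112, and common TCR 3 had 26, 18 and 102. Of the 11, 9 had their highest count in mouse 3. They carried 0 to 10 N bases (median 3), with N bases in 10 of 11, and 7 used a Trbj2 gene, 4 of them Trbj2-4. Of other V genes, 30 TCRs were common to the same 3 samples and held 15.02%, 11.5% and 85.5% of the templates of other V genes there, with 2617 further templates in other samples.

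**Figure D5:**
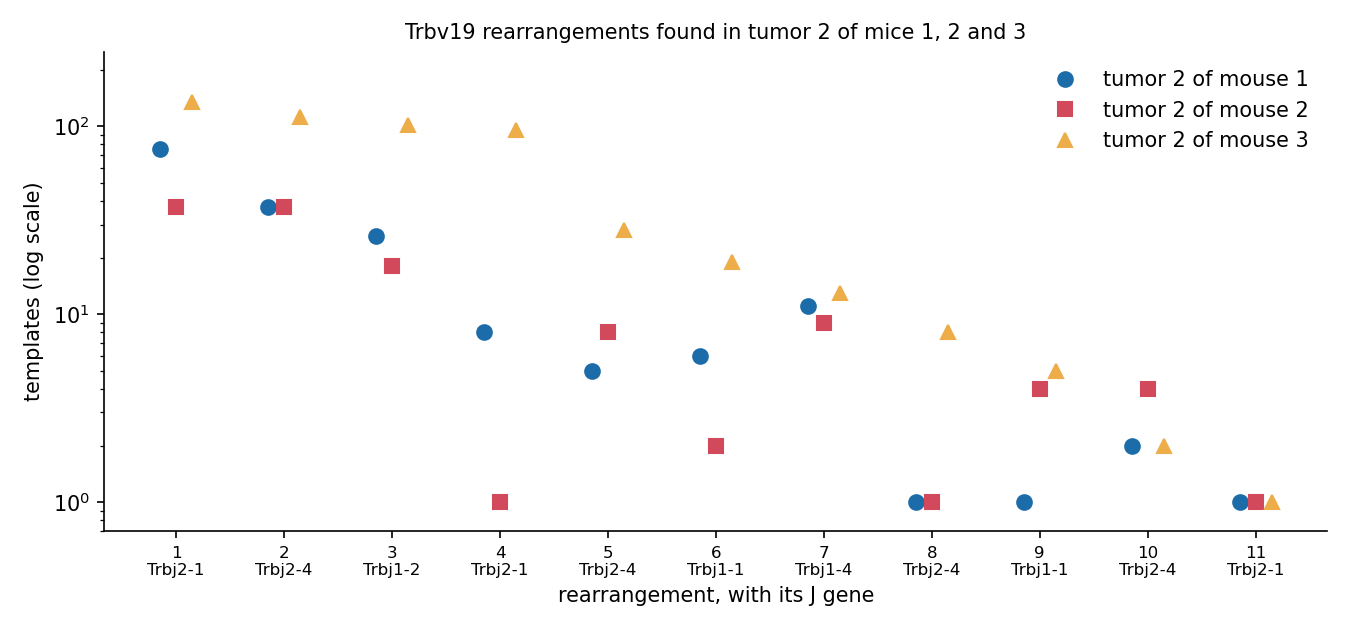
Templates, on a log scale, of the 11 productive Trbv19 TCRs found in tumor 2 of mice 1, 2 and 3, ordered by their count in mouse 3 and marked by mouse, with the J gene under each. In 9 of 11 the highest count is that of mouse 3, up to 134 templates.

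A smaller set was shared by tumor 1 of mice 4 and 5. These had 5 Trbv19 TCRs in common, with 1138 templates in mouse 4 and 44 in mouse 5, the latter being 30.99% of the Trbv19 templates of that tumor. For other V genes 31 TCRs were common, with 5.15% of the templates of mouse 5. By number, the common TCRs were 14.3% of the Trbv19 TCRs of mouse 5 and 10.3% of those of other V genes. In mouse 4 they held 1138 of 1292 Trbv19 templates and 3155 of 4013 templates of other V genes. The TCR of 352 templates in mouse 4 was among the 5.

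A CDR3 protein can also be reached by different rearrangements. Of 1224 distinct Trbv19 CDR3 amino acid sequences, 54 (4.41%) were found in 2 or more mice, 18 of them through different nucleotide sequences alone and 36 with a rearrangement common to mice, against 3.54% for other V genes. The CDR3 of the largest Trbv19 TCR of tumor 1 of mouse 3 was reached by different rearrangements in mice 3 and 4, and is among the 36 because the mouse 4 form was also found in mouse 5. The rearrangement of mouse 4 that codes for the same CDR3 of 14 amino acids with the same J gene is shown beside it to make the different junctions visible.
Mouse 3, Trbj2-4: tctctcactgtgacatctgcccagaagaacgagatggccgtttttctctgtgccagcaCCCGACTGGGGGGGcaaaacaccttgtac
Mouse 4, Trbj2-4: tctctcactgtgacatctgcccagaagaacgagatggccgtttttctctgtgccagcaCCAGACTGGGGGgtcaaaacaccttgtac
The form of mouse 3 was counted 27 times in tumor 1 and 7 times in the TdLN of that mouse, and in no other mouse. The form of mouse 4 was counted 335 times in tumor 1, 8 times in tumor 2 and once in the TdLN of that mouse, and 14 times in tumor 1 of mouse 5. Both carry 3 N bases and a V end trimmed by 6 bases. Further rearrangements of 1 and 2 templates in tumor 1 of mouse 4 code for the same CDR3. This CDR3 was looked at after its counts were seen.

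Non-productive Trbv19 rearrangements were also more frequent on average in the tumors, by 3.09 ± 5.79 percentage points in tumor 1 and 2.49 ± 3.37 in tumor 2 (SD, n = 5), with a spread larger than the difference. Without mouse 4 the difference of tumor 1 was 0.620 ± 2.03 points, and without mouse 3 that of tumor 2 was 1.27 ± 2.30. They made up 8.83%, 8.75%, 7.96%, 8.11% and 8.55% of unique non-productive rearrangements in the TdLN of mice 1 to 5. In tumor 1 they made up 11.1%, 6.41%, 9.497%, 21.1% and 9.62%, and in tumor 2 they made up 10.6%, 6.69%, 15.3%, 11.3% and 10.7%. The TdLN samples lie within a point of each other, and the tumors lie on both sides of them, with tumor 1 of mouse 4 highest. There 67 non-productive rearrangements held 88 templates, 3.33% of the non-productive templates, and 11 of the 67 shared their last 40 bases with a rearrangement of at least 50 times as many templates in the sample. Among productive Trbv19 TCRs this held for 8 of 46 in tumor 1 of mouse 4, for 10 of 38 in tumor 2 of mouse 3 and for 1 of 1132 in the TdLN samples together. Sequencing error was not tested as a source of these small rearrangements.

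Some non-productive rearrangements were large. That with most templates in tumor 1 is shown because no other Trbv19 rearrangement, productive or not, was larger in any sample, with the bases between V and J in capitals.
Tumor 1 of mouse 5, Trbj2-7, out of frame: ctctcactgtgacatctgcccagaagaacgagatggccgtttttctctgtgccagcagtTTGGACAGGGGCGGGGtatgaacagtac
It had 533 templates, 95.5% of the non-productive Trbv19 templates of that tumor, and 32 templates in the TdLN of the same mouse, where it was the largest non-productive rearrangement as well. Non-productive Trbv19 rearrangements carried 4.59 ± 0.639 N bases in the TdLN and 6.17 ± 1.46 in tumor 1 (SD, n = 5), and other V genes carried 4.38 ± 0.387 and 6.31 ± 0.629. The V end was trimmed by 3.96 ± 0.630 and 5.78 ± 1.28 bases for Trbv19, and by 2.99 ± 0.272 and 5.67 ± 1.48 bases for other V genes.

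Over the 15 samples, the V genes whose share of unique productive TCRs was most like that of Trbv19 were Trbv17 (Pearson r = 0.778), Trbv24 (r = 0.611) and Trbv13-3 (r = 0.469), taken from the 20 V genes that averaged 1% or more. These values describe 15 samples of 5 mice that share tissue and depth, and the shares of a sample sum to a fixed total. Leaving out the shallow tumor 2 of mouse 4, r was 0.754, 0.549 and 0.171. Trbv17 itself had 2.44% ± 0.523 of TdLN TCRs, 2.65% ± 0.860 of those of tumor 1 and 3.45% ± 0.986 of those of tumor 2 (SD, n = 5), with overlapping groups.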

How the data were processed

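Genomic DNA of sorted CD8+ PD-1+ CD44+ cells was assayed at the TCRβ locus (immunoSEQ) in both tumors and the TdLN of 5 untreated mice. The deposited values are template counts, estimated by the authors' service provider from reads, for each distinct rearrangement, with V, D and J calls and lengths, deletions and insertions deposited as other quantities, in numbers of bases. The labels name the build mm10. The aligner is not given in the sources used here. The deposited share column and 16 rearrangements without a V gene were not used, and 0 columns of other series were found. Sample groups and mouse numbers came from the sample labels.

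Productive and non-productive Trbv19 rearrangements were counted per sample, by number and by templates. CDR3 length, N bases and Trbj2 share were averaged over unique TCRs of a sample for each V gene with a mean share of at least 1% and at least 3 TCRs in every sample. Tumor and TdLN were compared by unpaired two-sided exact permutation tests (252 regroupings) with Benjamini-Hochberg adjustment over all 75 tests, although both came from the same mice. Overlaps were compared within mice by exact sign-flip tests. The code was tested on simulated data. The members and lists were chosen with earlier results of these data known. Genes were named by rule: the 3 J genes most frequent in the TdLN, the 2 with the largest difference, the 3 V genes most alike and the largest TCR of each sample. The CDR3 shared by mice 3 and 4 and the TCRs common to tumor 2 or tumor 1 samples were singled out after their values were seen.

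The mouse numbers pair tumor 1 with the TdLN: tumor 1 shared 36.2% of its Trbv19 TCRs with its own TdLN and 0.286% with others (one-sided exact permutation p = 0.00833 over 120 pairings). For tumor 2 the figures were 15.3% and 1.02% (exact p = 0.00833), with mouse 3 at 0%. Tumor 2 of mouse 5 shared 1.96% with its own TdLN but 5.88% with that of mouse 4. Tumor 2 of mouse 1 shared 19.5% with its own TdLN and 12.2% with that of mouse 2. The pairing of tumor 2 by Trbv19 TCRs thus does not hold for every mouse. Over all V genes, tumor 2 of mouse 5 shared 5.42% with its own TdLN and 5.24% with that of mouse 4. Tumor 2 of mouse 3 shared 1.55% with its own.

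Alternatives were weighting by templates, a minimum of 2 templates, leaving out TCRs found in another mouse or small ones sharing their last 40 bases with one of 50 times as many templates, distinct CDR3 protein sequences, medians, non-productive rearrangements, a TdLN downsampled to 3253 templates (100 draws), leaving out each mouse, and the mouse as a block. Added after seeing the data were downsampling for shares, the omission of tumor 2 of mouse 4, and the checks of sizes, J genes, length classes and template overlap without doubtful TCRs, and sizes, J genes, length classes and the template and non-productive shares without each mouse. Productive templates per sample were 238 to 9099, and Wilson 95% intervals and the limit of 3 templates cover counting error only. Exon 2 of Trbv19 and the V ends were matched to GRCm38. Python 3.11.15, numpy 2.4.6, pandas 2.3.3, scipy 1.17.1, matplotlib 3.10.9 and samtools 1.23.1 were used.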

Additional observations from a re-analysis of the deposited data

Results flagged for a closer look

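In 9 of 46 groups of 5 samples, a single sample lay far from the others for a Trbv19 measure, its gap to the nearest being over 0.71 of the range of the group (Dixon's limit). Independent normal values pass this limit in about 1 in 20 groups, but these 46 share the same 15 samples and include skewed template counts, so that rate is only a guide. Among productive rearrangements, the CDR3 length of the TdLN of mouse 3 was lowest at 41.2 bases (nearest 41.6), and that of tumor 1 of mouse 2 at 39.8 (nearest 41.1). The Trbj2 share was highest in the TdLN of mouse 2 at 72.2% (nearest 59.7%) and lowest in tumor 1 of mouse 1 at 44% (nearest 63.04%). Trbv19 held 24.4% of the templates of tumor 1 of mouse 4 (nearest 4.55%), where its largest TCR had 352 templates (nearest 67). Among non-productive rearrangements, the TdLN of mouse 1 stood out with a template share of 16.7% (nearest 9.23%) and a largest rearrangement of 154 templates (nearest 35). Tumor 1 of mouse 5 did so with its largest rearrangement of 533 templates (nearest 72).

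The Trbj2 share of non-productive Trbv19 rearrangements was lower in tumor 2 than in the TdLN in each of mice 1 to 3 (mean -7.996 percentage points) and higher in each of mice 4 and 5 (mean 18.99 points). This difference between the sets of mice was not tested.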

How the results depend on the processing

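The mean Trbv19 share difference kept its sign under all 13 alternatives for tumor 1 (0.639 to 3.88 percentage points) and all 14 for tumor 2. By templates (0.639), however, tumor 1 lay above its TdLN in 1 of 5 mice, and the mean was -3.77 points without mouse 4. With the mouse as a replicate block the share of unique TCRs was 1.36-fold and 1.76-fold higher than in the TdLN. The CDR3 difference kept its direction under 12 and 13 alternatives (-0.711 to -0.208 and -1.5 to -0.453 bases) and reached no adjusted p under 0.05 (lowest 0.238 and 0.147); the replicate block left it at -0.585 and -0.946 (exact sign-flip p = 0.0625 for each, the smallest possible) and changed no other call.

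The N base difference of tumor 1 turned to -0.164 by templates, -0.0240 without small TCRs sharing an end with a far larger one and -0.1 by medians, and ranged from -0.215 to 0.575 over mice left out. The Trbj2 difference turned to -5.41 by templates for tumor 1, and for tumor 2 to -5.22 with at least 2 templates and -1.23 without tumor 2 of mouse 4, with ranges over mice left out of -2.33 to 5.4 and -2.10 to 3.84. The overlap difference turned to -18.9 (tumor 1) and -20.4 (tumor 2) by templates, to -6.32 and -9.92 with at least 2 templates, and for tumor 2 to -0.529 by CDR3 protein and -1.35 with downsampled TdLNs. Leaving out mice gave 2.46 to 3.78 and -2.61 to 1.47. Without TCRs of another mouse, the tumor 2 size ratio turned to 0.39 (log2) and its template overlap difference to 3.16. Without small TCRs, the Trbj2-1 difference of tumor 2 turned to -0.313. The causes were not tested. The 10 to 51 Trbv19 TCRs of a tumor limit every within-tumor share.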
